A study of Mus musculus with 9 samples.

Results

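The genes described here are those through which an epithelium moves ions, bicarbonate and water: aquaporins (Aqp), carbonic anhydrases (Car), the bicarbonate transporters of family Slc4, the anion exchangers of family Slc26, the chloride channels Cftr and Ano1, the sodium-proton exchangers of family Slc9, the cation-chloride cotransporters of family Slc12, the sodium-calcium exchangers of family Slc8, the subunits of the epithelial sodium channel (Scnn1) and those of the sodium-potassium pump (Atp1). Members were taken by symbol pattern from probe sets with exactly 1 annotated gene, leaving out Car3, and the probe set with the highest mean over all arrays stood for a gene. This gave 74 of 19937 genes: 15 carbonic anhydrases, 11 water channels, 11 Slc26, 9 Slc4, 8 Slc12, 7 Slc9, 5 pump, 3 Slc8 and 3 Scnn1 genes and both chloride channels. The RNA came from whole oviduct of CD1 mice, an outbred stock, that had been given no hormones. There were 9 Affymetrix arrays: 3 of sexually mature females in diestrus, 3 of sexually mature females in estrus and 3 of sexually immature females of day 21. Tissue of 5 animals was pooled for each array, so that the spread between arrays is that between pools. The labels give no age for the mature females.

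The fluid of the oviduct is made by its epithelium, which secretes chloride and bicarbonate, with sodium and water following. Carbonic anhydrases form bicarbonate from carbon dioxide and water, and some Slc4 proteins, such as Slc4a4, load it across the basolateral membrane. Cftr and apical Slc26 exchangers release it into the lumen, where bicarbonate takes part in sperm capacitation. The sodium-potassium pump supplies the gradient that drives these steps, and aquaporins let water pass. In whole tissue, fewer cells of a type and less RNA per cell cannot be told apart.

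None of the 74 genes passed the test in any comparison (limma, with p-values adjusted by Benjamini and Hochberg's method across 28214 probe sets and a threshold of 0.05), and at an unadjusted p under 0.05 there were 9, 5 and 2 for diestrus against estrus, diestrus against immature and estrus against immature. Of all probe sets, 0.159%, 1% and 0.0851% passed the adjusted test and 9.33%, 13.4% and 6.52% the unadjusted one. The lowest adjusted p were 0.0779 for Slc9a9 and 0.091 for Aqp8, both in diestrus against estrus. The genes are therefore given by their values, and the differences below are estimates that did not pass the adjustment. For orientation, 3 promoter windows are printed: those of Aqp8 and Car12, 2 genes whose highest mean was in estrus, and of Slc9a9, whose highest mean was in diestrus. Each is the 250 bases before the start that the RefSeq promoter table gives for the gene (build GRCm38.p6, plus strand): chr7:123462044-123462293 for Aqp8, chr9:66713436-66713685 for Car12 and chr9:94669642-94669891 for Slc9a9. The Aqp8 window ends just before the annotated gene, which starts at 123462294. The Car12 and Slc9a9 windows lie inside the annotated genes, whose outermost starts are at 66712296 and 94669557, so that a later start is meant there. Capitals mark the 5-base core of the estrogen response element (GGTCA, or TGACC on the other strand).
Aqp8: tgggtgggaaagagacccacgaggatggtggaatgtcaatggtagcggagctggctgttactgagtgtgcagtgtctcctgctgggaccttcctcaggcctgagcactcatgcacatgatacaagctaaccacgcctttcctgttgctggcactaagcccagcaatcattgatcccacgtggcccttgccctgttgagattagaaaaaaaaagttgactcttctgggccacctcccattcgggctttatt
Car12: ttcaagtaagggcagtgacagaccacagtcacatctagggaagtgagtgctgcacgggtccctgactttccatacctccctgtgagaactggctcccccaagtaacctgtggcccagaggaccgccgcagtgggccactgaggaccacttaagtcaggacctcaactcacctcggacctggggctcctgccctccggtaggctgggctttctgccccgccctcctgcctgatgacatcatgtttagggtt
Slc9a9: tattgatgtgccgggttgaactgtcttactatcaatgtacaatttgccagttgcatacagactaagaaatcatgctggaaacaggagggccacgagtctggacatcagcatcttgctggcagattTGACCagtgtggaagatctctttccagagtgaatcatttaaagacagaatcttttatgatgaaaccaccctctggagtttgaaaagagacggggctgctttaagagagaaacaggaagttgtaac
The Slc9a9 window holds 1 such core on the minus strand, beginning 125 bases before that later start, and the Aqp8 and Car12 windows hold 0. The core occurs in 35.2% of all 32851 windows of this length, and in 31 of the 73 windows (42.5%) of the 58 transport genes with an entry in the promoter table. The full element GGTCANNNTGACC occurs in 0.0639% of all windows and in 0 of the 73. The 6-base core of progesterone receptor sites (TGTTCT, or AGAACA) is in 16.1% of all windows, in 8 of the 73 (11%) and in 0 of the 3 printed. The motifs searched do not overlap in the printed windows, and a match or its absence is a description of these letters only.

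Log2 intensities after robust multi-array averaging (RMA) describe every gene below, and levels of different genes are not set against each other. A value below the median of its array was not shown to be above background. By that mark, 27 of the 74 genes lay above the array median on all 9 arrays and 37 on none, and 8 of the 37 lay below the lower quartile on all 9. Above the median throughout were Aqp1, Aqp2 and Aqp5 among 11 water channels, 6 of 15 carbonic anhydrases, 5 of 9 Slc4 genes, 2 of 11 Slc26 genes (Slc26a2 and Slc26a9), Cftr and Ano1, Slc9a8 and Slc9a9, 4 of 8 Slc12 genes, and Atp1b1, Atp1b2 and Atp1b3 of the pump. None of the Scnn1 and Slc8 genes did so. In 13 of the 74 genes at least 3 arrays carried the same value to 3 decimals, against 20.5% of all probe sets. Of these 13 genes, 10 lay below the median of every array.

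**Figure D1:**
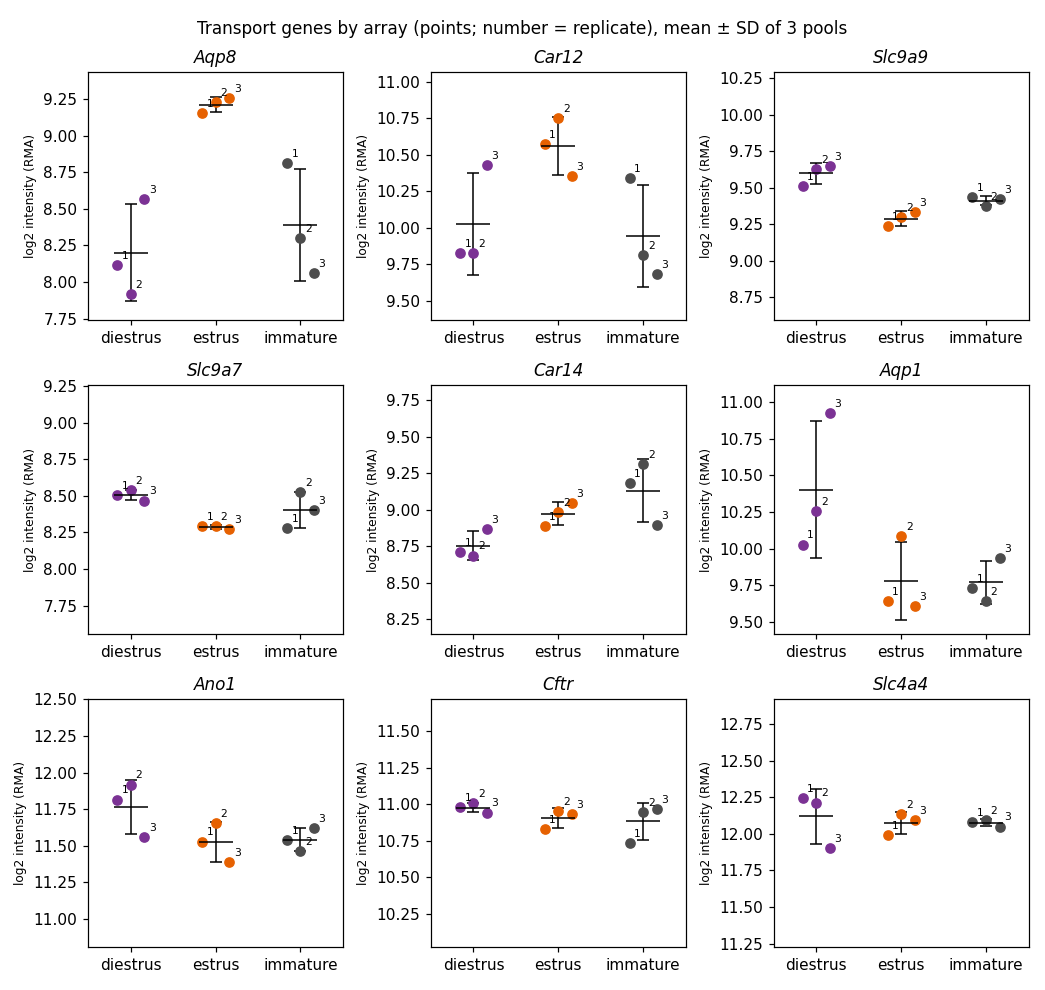
Log2 intensity (RMA, vertical axis) of 9 transport genes in diestrus, estrus and immature oviduct; each point is 1 array of 5 pooled animals with its replicate number, and the bar and whiskers are the mean ± SD of 3 arrays. Every panel spans the same 1.7 log2 units. Aqp8 in estrus lies above all other arrays, Slc9a9 is highest in diestrus and lowest in estrus, and Cftr and Slc4a4 overlap between all groups.

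The label of the tissue was checked against markers, and the labels of the stages were not checked by those named here. Genes of the oviduct's secretory and ciliated cells were high on every array: Pax8 lay between 11.76 and 12.23, and Foxj1 between 10.98 and 11.67. Marker lists of other tissues differed between arrays of 1 group. The mean of 8 ovarian markers was 8.07, 9.58 and 8.59 on diestrus 1, 2 and 3, 8.21, 8.20 and 8.05 in estrus, and 8.02, 9.13 and 8.05 in immature oviduct. The mean of 8 smooth muscle markers was 11.91 on diestrus 3 and 11.13 to 11.36 elsewhere, and that of 5 posterior Hox genes was 8.93 on diestrus 3 and 8.07 to 8.37 elsewhere. The mean of 9 fat cell markers was 9.49, 9.20 and 8.87 on immature 1, 2 and 3, and 8.59 to 8.94 elsewhere. Red cell markers (5 measured, none above the median throughout) lay between 7.52 and 7.67 on average. Transport genes whose values go with these arrays are given together below.

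Among the water channels, Aqp8 had its 3 highest values in estrus. It had 8.12, 7.92 and 8.57 in diestrus, 9.16, 9.23 and 9.26 in estrus, and 8.81, 8.30 and 8.06 in immature oviduct. The 3 estrus arrays lay close together and above all 6 others, while the diestrus and immature arrays overlapped. The estimate for diestrus minus estrus was -1.01 ± 0.20 (SE, 95% interval -1.45 to -0.58), 2.02-fold lower intensity in diestrus, with an adjusted p of 0.091 (limma, unadjusted p = 0.000472). Estrus minus immature was 0.82 ± 0.20 (interval 0.38 to 1.26, adjusted p = 0.263), and diestrus minus immature was -0.19 ± 0.20 (adjusted p = 0.743). Only the estrus values lay above the array medians, so a fold of the transcript cannot be given. Without diestrus 3 the diestrus minus estrus estimate was -1.20 ± 0.18 and its adjusted p 0.0446. With only the 14460 probe sets above the median on at least 3 arrays the adjusted p was 0.0471. Aqp8 entered that filter only through its 3 estrus arrays, so this value is not independent support for the difference. Across all 20 alternatives the estimate ranged between -1.20 and -0.87, with adjusted p between 0.00151 and 0.712. Aqp8 is also known from ovarian granulosa cells of the mouse. It stood at 7.92 and 8.30 on diestrus 2 and immature 2, where the mean of 8 ovarian markers was highest. That mean joins granulosa, theca and luteal genes. Its granulosa genes Inha, Inhba, Amh and Fshr stood at 10.94, 8.48, 8.11 and 7.85 on diestrus 2. On immature 2 they stood at 12.42, 9.765, 8.66 and 8.27. The part of ovarian tissue in the Aqp8 values was not tested.

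Aqp1, the water channel of endothelium and red cells, was highest in diestrus. It had values of 10.03, 10.25 and 10.93 in diestrus, 9.64, 10.09 and 9.61 in estrus, and 9.73, 9.64 and 9.93 in immature oviduct. All diestrus arrays lay above the immature ones, and diestrus 1 lay below estrus 2. Diestrus minus immature was 0.63 ± 0.21 (interval 0.16 to 1.11, adjusted p = 0.23) and diestrus minus estrus 0.63 ± 0.21 (interval 0.15 to 1.10). The mean of 7 endothelial markers was 9.10, 9.00 and 9.53 in diestrus, 9.09, 8.96 and 9.08 in estrus, and 9.26, 9.11 and 9.05 in immature oviduct. It was thus highest on diestrus 3, as Aqp1 was, and its part in the Aqp1 values was not tested. Without diestrus 3, diestrus minus immature was 0.37 ± 0.15 for Aqp1 (adjusted p = 0.305), and with immature 2, diestrus 2 and diestrus 3 left out it was 0.20 ± 0.21 (adjusted p = 0.833).

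The other 9 water channels had differences of at most 0.15 in size. Aqp5, the apical water channel of glands and airways, had 9.98, 9.98 and 9.92 in diestrus, 10.11, 9.99 and 10.10 in estrus, and 10.06, 9.94 and 9.86 in immature oviduct. The diestrus arrays lay just below those of estrus, with a difference of -0.11 (interval -0.25 to 0.04). Aqp2, known as the vasopressin-regulated channel of the kidney, ranged between 9.03 and 9.35 over the 9 arrays, with intervals of -0.18 to 0.15 for diestrus minus estrus and -0.07 to 0.26 for estrus minus immature. Aqp11, an intracellular member, lay at 8.93, 8.74 and 8.71 in diestrus, 8.69, 8.86 and 8.50 in estrus and 8.63, 8.60 and 8.69 in immature oviduct, near the array medians. Aqp4, the channel of brain astrocytes, had 8.80, 8.80 and 8.67 in diestrus and 8.75, 8.80 and 9.00 in immature oviduct, a difference of -0.09 ± 0.07 (adjusted p = 0.637) that was -0.05 without diestrus 3 and -0.02 without immature 3. Aqp3 and the glycerol-conducting Aqp7 and Aqp9 lay below the median on all 9 arrays, as did Aqp6 and Aqp12. Aqp7, which is typical of fat cells, ranged between 7.90 and 8.39.

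Among carbonic anhydrases on the cell surface, Car12, an enzyme on the outer face of epithelial membranes, had 9.82, 9.82 and 10.43 in diestrus, 10.57, 10.75 and 10.36 in estrus and 10.34, 9.81 and 9.68 in immature oviduct. The estrus arrays lay above all immature ones, immature 1 (10.34) narrowly, and diestrus 3 lay within the estrus range. Estrus minus immature was 0.61 ± 0.20 (interval 0.16 to 1.07, 1.53-fold, adjusted p = 0.575), and diestrus minus estrus was -0.53 ± 0.20 (interval -0.99 to -0.08, adjusted p = 0.425). Leaving out 1 array at a time put estrus minus immature between 0.48 (without immature 3) and 0.81 (without immature 1), and array weights gave 0.39. Car14, another membrane-bound enzyme facing outward, had 8.71, 8.69 and 8.87 in diestrus, 8.89, 8.98 and 9.04 in estrus and 9.18, 9.31 and 8.89 in immature oviduct. All diestrus arrays lay below all others, and several of the values lay below the array median. Diestrus minus immature was -0.38 ± 0.10 (interval -0.61 to -0.15, adjusted p = 0.141), and estrus minus immature was -0.16 ± 0.10 (adjusted p = 0.845), between -0.28 without immature 3 and -0.07 without immature 2. Car9, the surface enzyme known for induction by low oxygen, had 8.51, 9.22 and 8.63 in diestrus, 8.39, 8.43 and 8.54 in estrus and 8.53, 8.53 and 8.37 in immature oviduct. Its highest value fell on diestrus 2, the array with the highest ovarian markers. On immature 2, where those markers were next highest, Car9 had 8.53, as on immature 1. The part of ovarian tissue in the Car9 values was not tested. Car4, anchored to the membrane by a lipid, lay below the median on all 9 arrays.

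Among the enzymes inside the cell, Car2, the fast cytosolic enzyme, had 11.39, 11.12 and 11.95 in diestrus, 11.40, 11.44 and 11.52 in estrus and 11.56, 11.56 and 11.48 in immature oviduct. Diestrus held both the highest and the lowest array, and the intervals were -0.34 to 0.41 for diestrus minus estrus and -0.45 to 0.29 for estrus minus immature. Car5b, the mitochondrial form, had 10.85, 10.50 and 10.22 in diestrus, 10.38, 10.74 and 10.72 in estrus and 10.92, 10.82 and 10.77 in immature oviduct. The immature arrays lay above all estrus arrays, but diestrus 1 lay among the immature ones. Diestrus minus immature was -0.31 ± 0.15 (adjusted p = 0.413), -0.16 without diestrus 3, and 0.00 with immature 2, diestrus 2 and diestrus 3 left out. Car13 and Car7, both cytosolic, ranged between 10.04 and 10.41 and between 9.51 and 10.22. The remaining 8 of the 15 carbonic anhydrases were Car1, Car5a, Car6, Car8, Car10, Car11, Car15 and Car4, not all of them inside the cell. They had differences of at most 0.15 in size in every pairwise comparison. Over all 15 carbonic anhydrases the median difference was 0.02 in diestrus against estrus and 0.01 in estrus against immature.

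For Slc4a4, Cftr, Ano1 and Slc4a2, genes of the bicarbonate and chloride route, the arrays of every pair of groups overlapped. Slc4a4, the basolateral sodium bicarbonate cotransporter, had 12.24, 12.21 and 11.90 in diestrus, 11.99, 12.13 and 12.10 in estrus and 12.08, 12.10 and 12.05 in immature oviduct. The interval of diestrus minus estrus was -0.15 to 0.24 and that of estrus minus immature -0.20 to 0.20. Cftr, the cAMP-gated chloride and bicarbonate channel mutated in cystic fibrosis, had 10.98, 11.01 and 10.94 in diestrus, 10.83, 10.95 and 10.93 in estrus and 10.73, 10.95 and 10.96 in immature oviduct. The intervals were -0.09 to 0.23, -0.06 to 0.25 and -0.13 to 0.18 for diestrus minus estrus, diestrus minus immature and estrus minus immature. A difference of 1.5-fold in Cftr intensity therefore lay outside each 95% interval, taken on its own and with no adjustment. Array summaries can compress differences, so that the RNA itself may differ by more.

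Ano1, the calcium-activated chloride channel, had 11.81, 11.92 and 11.56 in diestrus, 11.53, 11.66 and 11.39 in estrus and 11.54, 11.46 and 11.62 in immature oviduct. Diestrus 1 and 2 were the highest arrays, and diestrus 3 lay within the range of the other groups. Diestrus minus estrus was 0.24 (interval 0.01 to 0.46, limma adjusted p = 0.495). Diestrus minus immature was 0.22 (interval -0.002 to 0.45) and estrus minus immature -0.01 (interval -0.24 to 0.21). Ano1 is also expressed by the pacemaker cells of smooth muscle, and muscle markers were highest on diestrus 3, the lowest of the 3 diestrus arrays for Ano1; the part of muscle in its values was not tested. Slc4a2, an exchanger of chloride for bicarbonate, ranged between 10.35 and 10.68, with an interval of -0.20 to 0.18 for diestrus minus estrus. The 9 Slc4 genes had differences between -0.12 and 0.22 in all comparisons of 2 groups, and none reached an unadjusted p under 0.05.

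Most Slc26 exchangers lay low on the arrays. Slc26a4 (pendrin, an exchanger of chloride for iodide and bicarbonate) had 7.85, 8.11 and 7.82 in diestrus, 7.67, 7.61 and 7.72 in estrus and 7.72, 7.63 and 7.66 in immature oviduct. All 3 diestrus arrays lay above the other 6, but every value was below the array median. Diestrus minus estrus was 0.26 ± 0.08 (interval 0.09 to 0.44, adjusted p = 0.277) and diestrus minus immature 0.26 ± 0.08 (adjusted p = 0.187), and both were 0.17 without diestrus 2. The sulfate transporter gene Slc26a2 had 9.11, 9.11 and 9.04 in diestrus, 9.09, 9.20 and 9.07 in estrus and 9.00, 8.99 and 9.01 in immature oviduct. Its 6 mature arrays all lay above the 3 immature ones, with estrus minus immature at 0.12 ± 0.05 (adjusted p = 0.777), and at 0.08 without estrus 2. Slc26a9, a chloride transporter of airway and stomach, ranged between 9.47 and 9.80, with intervals of -0.14 to 0.29 for diestrus minus estrus and -0.28 to 0.14 for estrus minus immature. Slc26a3 and Slc26a6, the exchangers that work with Cftr in gut and pancreas, lay below the median on all 9 arrays, Slc26a3 between 6.86 and 7.04 and Slc26a6 between 8.07 and 8.36.

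Among the sodium-proton exchangers, Slc9a9 had the lowest adjusted p of all 74 genes. It encodes an exchanger of endosomes, not of the cell surface. It had 9.51, 9.63 and 9.65 in diestrus, 9.23, 9.30 and 9.33 in estrus and 9.44, 9.38 and 9.42 in immature oviduct. The groups did not overlap in any pairing, with immature oviduct between the other two. Diestrus minus estrus was 0.31 ± 0.06 (interval 0.18 to 0.44, 1.24-fold, adjusted p = 0.0779). Diestrus minus immature was 0.19 ± 0.06 (adjusted p = 0.187), or 0.08 with immature 2, diestrus 2 and diestrus 3 left out, and estrus minus immature was -0.12 ± 0.06 (adjusted p = 0.775). With only probe sets above the median on at least 3 arrays the adjusted p of diestrus minus estrus was 0.0471, and over the 20 alternatives it lay between 0.00404 and 0.904 with estimates between 0.23 and 0.35. The mean of 4 macrophage markers was 9.135, 9.30 and 9.74 in diestrus and 8.99, 9.04 and 9.09 in estrus. In immature oviduct that mean was 9.27, 8.95 and 9.12. As with Slc9a9, its diestrus arrays all lay above its estrus arrays. The part of macrophages in the Slc9a9 values was not tested. Slc9a7, an exchanger of the trans-Golgi network, had 8.51, 8.54 and 8.47 in diestrus, 8.29, 8.29 and 8.28 in estrus and 8.28, 8.53 and 8.40 in immature oviduct. Its diestrus arrays lay above its estrus arrays, all below the array median. Diestrus minus estrus was 0.22 ± 0.07 (adjusted p = 0.284), and estrus minus immature was -0.12 ± 0.07 (adjusted p = 0.835), between -0.18 without immature 1 and -0.05 without immature 2. The surface exchangers Slc9a2 and Slc9a3 of gut and kidney lay below the median on every array, Slc9a2 between 7.94 and 8.21 and Slc9a3 between 8.01 and 8.34.

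Slc12a2, the sodium-potassium-chloride cotransporter that loads secretory cells with chloride, had 10.83, 10.77 and 10.81 in diestrus, 10.66, 10.68 and 10.78 in estrus and 10.75, 10.75 and 10.37 in immature oviduct. Immature 3 was the lowest array and the other 8 lay between 10.66 and 10.83, with all diestrus arrays above all immature ones. Diestrus minus immature was the largest difference, 0.18 (interval -0.03 to 0.40). The interval was -0.12 to 0.31 for diestrus minus estrus and -0.13 to 0.30 for estrus minus immature. The kidney cotransporters Slc12a1 and Slc12a3 lay below the median on all 9 arrays. Of the epithelial sodium channel, which takes up sodium from the lumen, Scnn1a had 9.25, 9.28 and 8.75 in diestrus, 8.87, 9.07 and 8.95 in estrus and 9.06, 9.02 and 9.30 in immature oviduct. These values overlapped between all groups, with an interval of -0.47 to 0.14 for estrus minus immature. Scnn1b and Scnn1g lay below the median on all 9 arrays, between 7.97 and 8.22 and between 7.58 and 7.82.

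Beta subunits of the sodium-potassium pump, which carry its alpha subunits to the membrane, were the pump genes with values above the median. Atp1b3 had 11.98, 11.76 and 12.38 in diestrus, 12.35, 12.28 and 12.48 in estrus and 12.38, 12.23 and 12.06 in immature oviduct. Diestrus 1 and 2 were the lowest of the 9 arrays, and diestrus 3 lay among those of estrus. Diestrus minus estrus was -0.33 ± 0.14 (adjusted p = 0.521), and a further probe set of the gene gave -0.33 as well. The estimate was -0.19 without diestrus 2, -0.50 without diestrus 3 and -0.57 with array weights (limma adjusted p = 0.00777). Those weights were 8.16 for estrus 3 against 0.413 and 0.325 for estrus 1 and 2, so the weighted estrus mean rests mostly on estrus 3. Atp1b1, the main beta subunit of epithelia, had 12.31, 12.18 and 11.69 in diestrus, 12.15, 12.51 and 12.03 in estrus and 12.11, 12.10 and 11.73 in immature oviduct. The groups overlapped, and the intervals, -0.57 to 0.24 for diestrus minus estrus and -0.16 to 0.65 for estrus minus immature, were among the wider ones. The testis alpha subunit gene Atp1a4 lay between 7.67 and 7.83, below the median on each array.

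A few genes had 1 or 2 arrays far from the rest and were picked after their values were seen. Slc26a7, an anion exchanger of kidney and stomach, had 8.08, 8.42 and 9.70 in diestrus, 8.22, 8.36 and 7.96 in estrus and 8.37, 9.23 and 8.11 in immature oviduct. Its highest array, diestrus 3, was the one with the highest muscle and Hox markers. The next, immature 2, was an array with high ovarian markers. On diestrus 2, where ovarian markers were highest, Slc26a7 had only 8.42. The sodium-calcium exchanger gene Slc8a1, known from heart and smooth muscle, stood at 9.54 on diestrus 3 and at 8.43 to 8.74 elsewhere. Its further probe set was also highest there, with 8.70, and at most 7.92 elsewhere. The part of neighbouring tissue in these values was not tested.

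**Figure D2:**
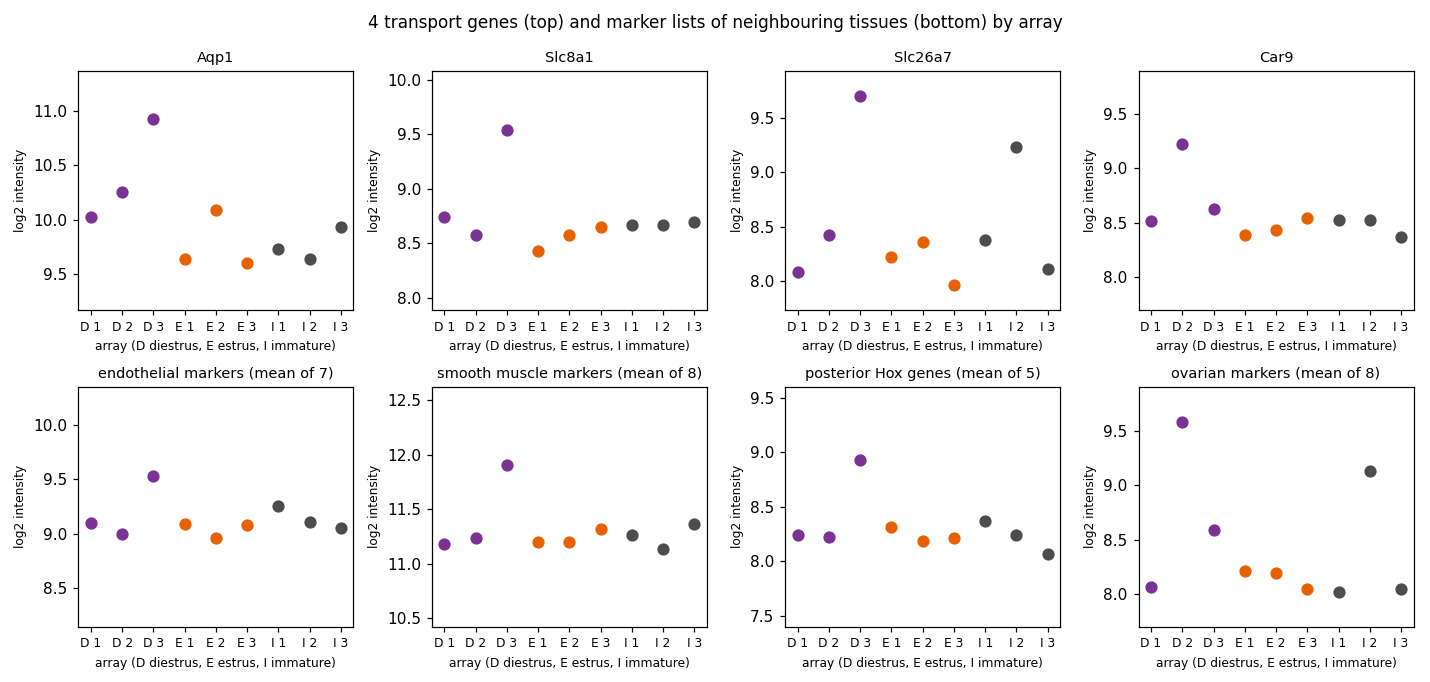
Log2 intensity of 4 transport genes (top row) and mean log2 intensity of 4 marker lists (bottom row) on each of the 9 arrays, ordered diestrus, estrus, immature; all panels span 2.2 log2 units. Aqp1, Slc8a1 and Slc26a7 have their highest value on diestrus 3, as endothelial, smooth muscle and posterior Hox markers do, and Car9 on diestrus 2, as ovarian markers do.

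The map of deviations shows the 27 genes above the median throughout. Estrus 1 was the array with the highest value in 20 of the 74 genes (27%), and in 23.2% of all probe sets. Immature 3 had the lowest value in 17 (23%), against 17.4% of all probe sets.

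**Figure D3:**
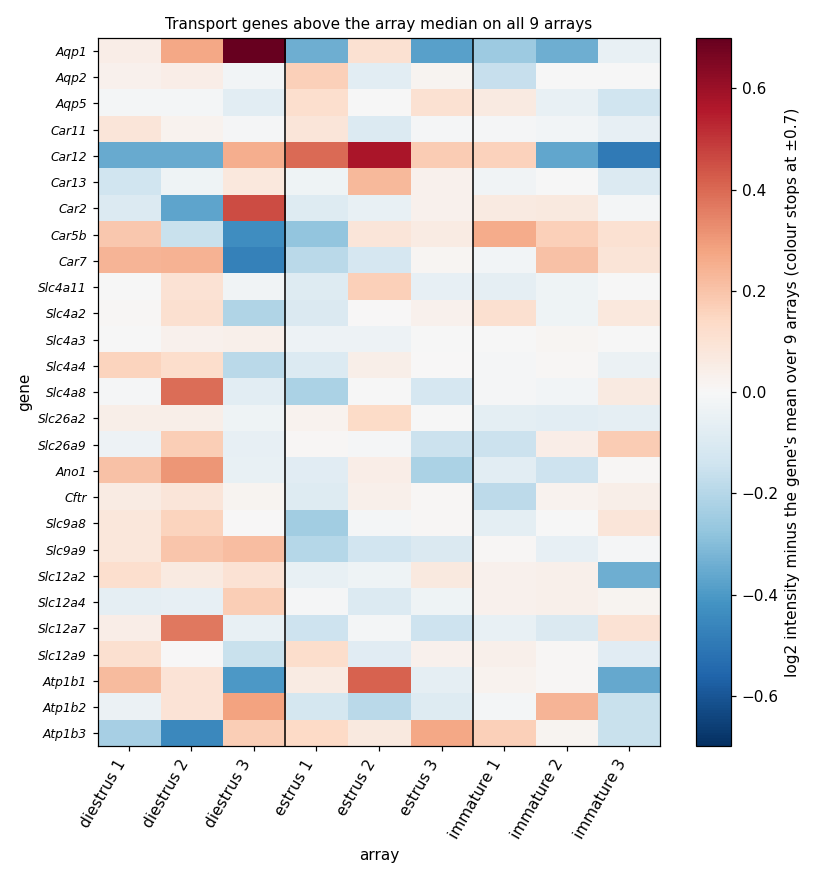
Deviation of log2 intensity from the gene's mean over 9 arrays (colour, red higher and blue lower) for the 27 transport genes above the array median on all 9 arrays; columns are arrays in the order diestrus, estrus, immature, and black lines separate the groups. Car12 is highest on estrus 1 and 2, Slc9a9 is red in diestrus and blue in estrus, and diestrus 3 differs from diestrus 1 and 2 for Aqp1, Car2, Car7 and Atp1b1.

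Counted over the whole group, diestrus against estrus gave 0 of 74 genes at an adjusted p under 0.05, where 0.159% of all probe sets passed. At an unadjusted p under 0.05 there were 9 (12.2%), against 9.33% of all probe sets: 6 higher in diestrus (3.85% of probe sets) and 3 lower (5.48%). The higher ones were Slc9a9, Slc26a4, Slc9a7, Aqp1, Ano1 and Atp1b2, and the lower ones Aqp8, Car12 and Atp1b3. The arrays of the groups did not overlap in 7 genes (9.46%), against 11.8% of probe sets, 4 of them higher (4.93% of probe sets) and 3 lower (6.85%). Means were higher in diestrus for 45 of the 74, and for 13211 of all probe sets. The median difference was 0.02, and -0.01 over all probe sets.

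Diestrus against immature gave 0 of 74 at an adjusted p under 0.05, where 1% of probe sets passed, and 5 (6.76%) at an unadjusted p under 0.05, against 13.4%. These were Slc9a9, Slc26a4, Aqp1 and Car1, higher in diestrus (4.44% of probe sets), and Car14, lower (8.95%). Arrays did not overlap in 10 genes (13.5%), against 18.4% of probe sets, 8 of them higher (7.52% of probe sets) and 2 lower (10.9%). Means were higher in diestrus for 57 of the 74, and for 15106 of all 28214 probe sets, with a median difference of 0.04 (0.01 over all probe sets).

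Estrus against immature gave 0 of 74 at an adjusted p under 0.05, where 0.0851% of probe sets passed, and 2 (2.70%) at an unadjusted p under 0.05, Aqp8 and Car12, against 6.52%. Both were higher in estrus (2.25% of probe sets), and none was lower (4.27%). Arrays did not overlap in 7 genes (9.46%), against 9.8%, 3 of them higher (3.19% of probe sets) and 4 lower (6.62%). Means were higher in estrus for 41 of the 74, and for 15469 of all probe sets. The median difference was 0.02 (0.01 over all probe sets). The mean of both mature stages against immature gave 0 of 74 at an adjusted p under 0.05 (0.432% of probe sets) and 2 at an unadjusted p under 0.05 (10% of probe sets): Car14, lower, with -0.27 ± 0.09 (6.81% of probe sets were lower) and Car1, higher, with 0.14 ± 0.06 (3.2% were higher). In that comparison arrays did not overlap in 1 gene, Slc26a2, higher in the mature groups, against 4.58% of probe sets (1.4% higher and 3.18% lower). The comparisons share arrays and are not independent of each other. Summed over both directions, these shares were below those of all probe sets, except the unadjusted share in diestrus against estrus.

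**Figure D4:**
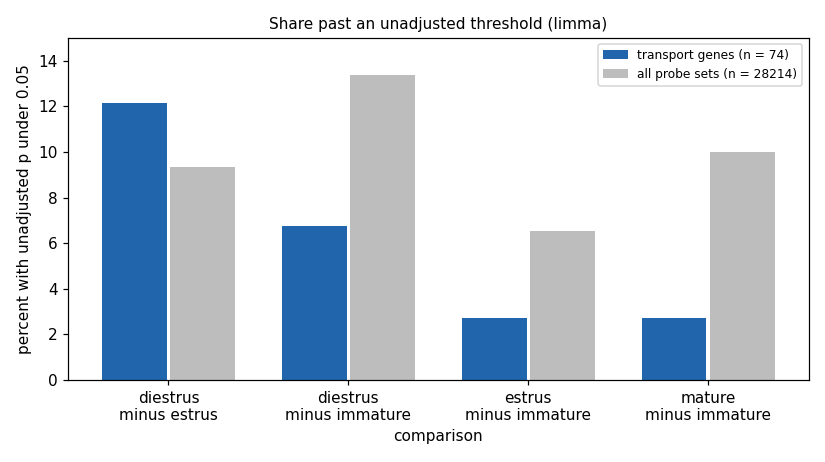
Percent of the 74 transport genes (blue) and of all 28214 probe sets (grey) with an unadjusted limma p under 0.05 in 4 comparisons. The transport genes exceed all probe sets in diestrus against estrus (12.2% and 9.33%) and lie below them in the other 3.

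The precision set what could be seen. The median width of a 95% interval to either side was 0.17 for the difference between 2 groups, and the interval lay within 2-fold in both directions for 71 of 74 genes in diestrus against estrus, 72 in diestrus against immature and 71 in estrus against immature. It lay within 1.5-fold for 67, 67 and 70. The intervals are for each gene alone, and a narrow interval of a gene near background does not bound its RNA. Among the 27 genes above the median throughout, 24, 25 and 25 had intervals within 1.5-fold in these comparisons.

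**Figure D5:**
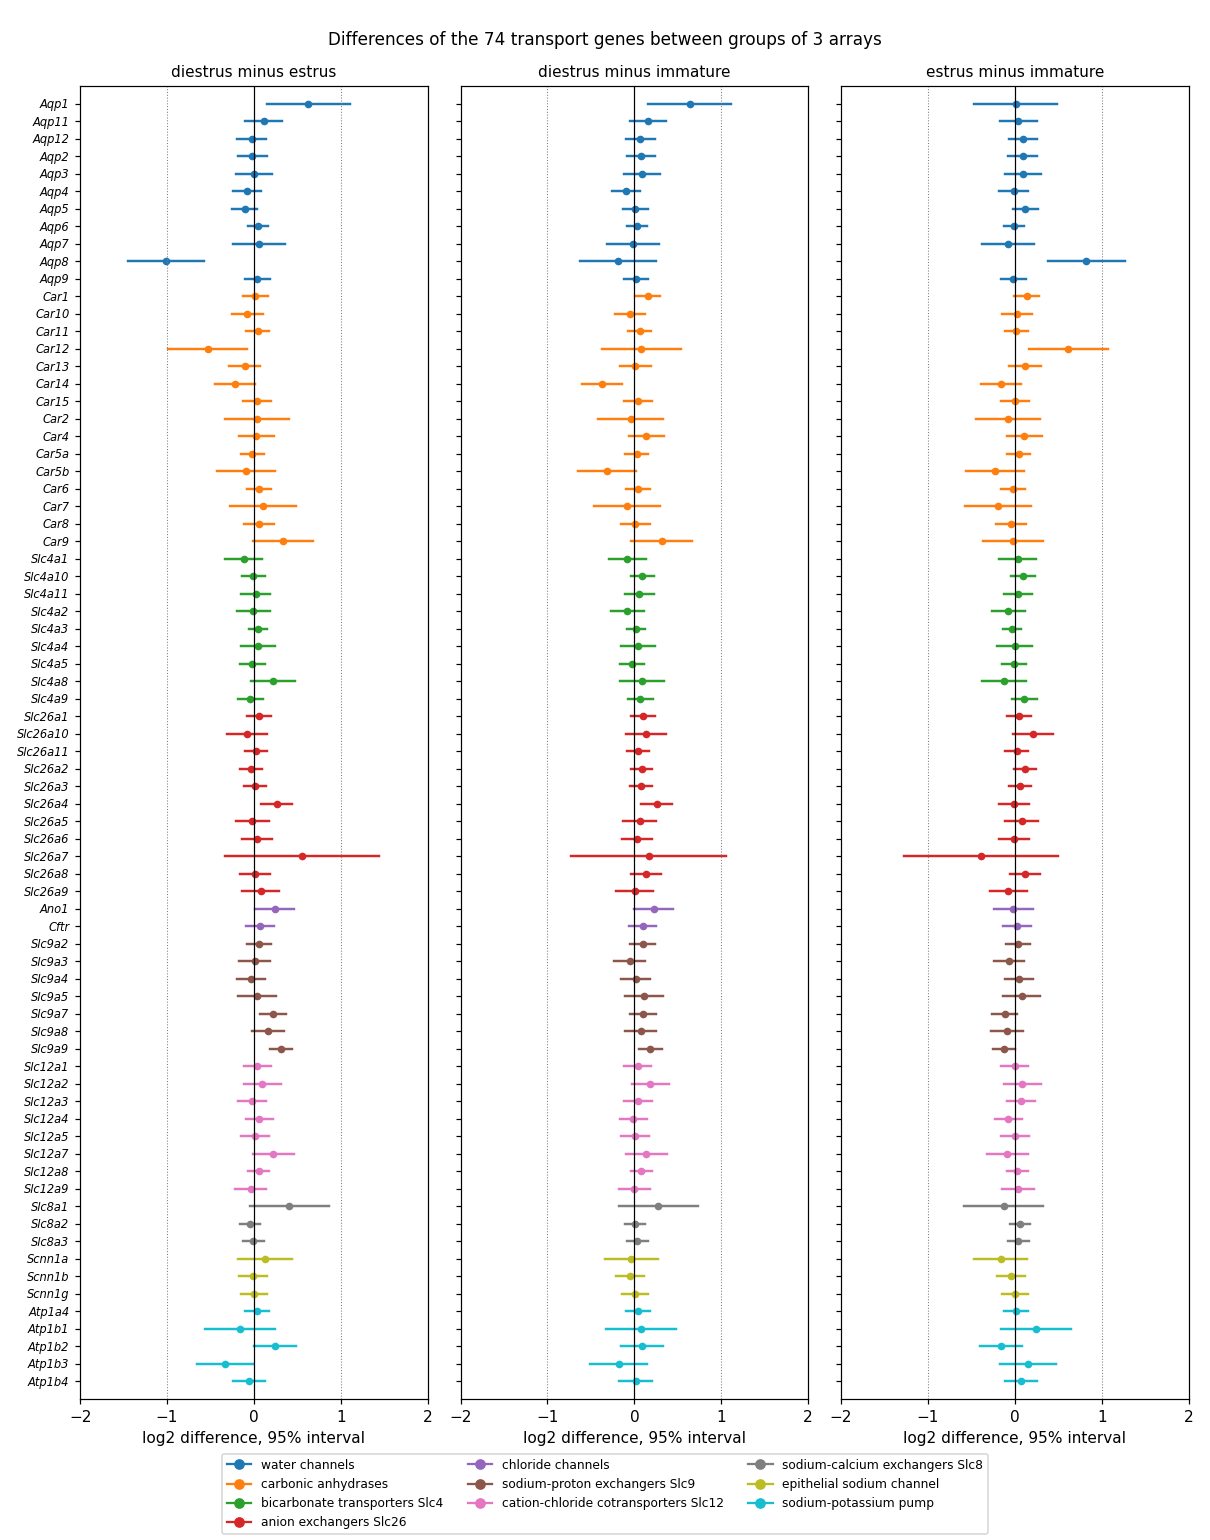
Log2 difference (point) with its unadjusted 95% interval (line) for each of the 74 transport genes, coloured by family, for diestrus minus estrus, diestrus minus immature and estrus minus immature; dotted lines mark 2-fold. Aqp8 lies farthest from 0 in diestrus minus estrus (-1.01) and in estrus minus immature (0.82), and Slc26a7 has the widest interval.

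Partners and regulators of these transporters were read from a list of 89 genes, of which 86 were measured: other channels, pump modulators, kinases, proteases, scaffolds, receptors and ionocyte transcription factors. None passed at an adjusted p under 0.05 in any comparison. At an unadjusted p under 0.05 there were 13 of 86 (15.1%) in diestrus against estrus, 13 (15.1%) in diestrus against immature and 6 (6.98%) in estrus against immature, beside the 9.33%, 13.4% and 6.52% of all probe sets given above. The lowest adjusted p in diestrus against estrus was that of Stk39, which encodes SPAK, a kinase that switches on the cotransporter encoded by Slc12a2. Stk39 had 11.31, 11.21 and 11.16 in diestrus, 11.53, 11.65 and 11.78 in estrus and 11.55, 11.61 and 11.50 in immature oviduct. Its 3 diestrus arrays lay below the other 6, with diestrus minus estrus at -0.43 ± 0.07 (adjusted p = 0.0705) and diestrus minus immature at -0.32 ± 0.07 (adjusted p = 0.0846). Oxsr1, for the related kinase OSR1, had 10.21, 10.11 and 10.15 in diestrus, 10.28, 10.40 and 10.37 in estrus and 10.45, 10.40 and 10.32 in immature oviduct. Its diestrus arrays too lay below the other 6, with diestrus minus immature at -0.24 ± 0.06 (adjusted p = 0.11).

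Vipr1, a receptor for vasoactive intestinal peptide that raises cAMP, had 9.45, 9.53 and 9.24 in diestrus, 9.24, 9.38 and 9.19 in estrus and 9.04, 9.01 and 9.02 in immature oviduct. The 6 mature arrays lay above the 3 immature ones, with diestrus minus immature at 0.38 ± 0.08 (adjusted p = 0.0701) and estrus minus immature at 0.24 ± 0.08 (adjusted p = 0.587). Atp6v0a4, a subunit of the proton pump of acid-secreting cells, differed by 0.31 ± 0.07 in diestrus minus immature (adjusted p = 0.069) and by 0.17 ± 0.07 in estrus minus immature (adjusted p = 0.675). Asic2, an acid-sensing sodium channel gene, differed by -0.30 ± 0.06 in diestrus minus estrus (adjusted p = 0.106). Fxyd6, a modulator of the sodium-potassium pump, and Kcnma1, a calcium-activated potassium channel also found in smooth muscle, differed by 0.25 ± 0.06 and 0.35 ± 0.10 (adjusted p = 0.161 and 0.254). In estrus minus immature, St14, a protease that can activate the sodium channel, and Nedd4l, the ligase that removes it from the membrane, differed by -0.24 ± 0.07 and -0.23 ± 0.07 (adjusted p = 0.423 and 0.575).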

How the data were processed

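RNA of 9 pools of oviduct was measured on Affymetrix arrays. The deposited values are log2 intensities. The submitters' processing notes name RMA and Affymetrix Expression Console. Versions and build: not given in the sources used here. Of 28214 probe sets, 21640 had 1 symbol in the platform annotation. The number of arrays limits the precision, and values carry no read depth. One model over all 9 arrays was fitted to every probe set with limma 3.58.1 (R 4.3.3; lmFit, eBayes, two-sided; 6 residual and 3.60 prior degrees of freedom), and p-values were Benjamini-Hochberg adjusted over all probe sets and called under 0.05. The method was tested on simulated data. Plots were drawn with matplotlib 3.10.9 under Python 3.11.15. Promoter windows came from RefSeq (GRCm38.p6).

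The members and lists were chosen with earlier results of these data known. Some genes that fit the symbol pattern are not reported here. Named were any called members, the 3 members with the largest moderated t either way in each comparison of 2 groups, 28 measured genes of a set of 32 to be named in any case, the partner genes with the 2 largest either way, and genes marked as picked after their values were seen. Same-numbered arrays did not deviate together (correlations between -0.29 and 0.17), so replicate numbers were not taken to pair samples. Alternatives were the replicate block, a filter on low values, 3 normalizations, array weights, a robust prior with a trend, the compared arrays alone, the mean of a gene's probe sets, only probe sets with 1 symbol and each array left out. Leaving out immature 2, diestrus 2 and diestrus 3 together was added after seeing the data.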

Additional observations from a re-analysis of the deposited data

Results flagged for a closer look

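In 2 of the 74 transport genes (2.7%, against 1.79% of all probe sets) every diestrus array lay above the immature mean and every estrus array below it. These were Slc9a9, with a diestrus minus estrus difference of 0.31 (limma adjusted p = 0.0779), and Slc9a7, with 0.22 (adjusted p = 0.284). The difference between the stages was tested by that contrast and did not pass in either gene. Both encode exchangers of internal membranes, a trait read after the genes were picked and not tested. Slc9a8, of the same family and above the median on all 9 arrays, did not show the pattern.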

How the results depend on the processing

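The count of transport genes called was 0 in all 4 comparisons, and 0 with the replicate block. With only probe sets above the median on at least 3 arrays it was 2 in diestrus against estrus (Aqp8 and Slc9a9). Aqp8 entered that filter only through its estrus arrays, so its call there is not independent support. Array weights gave 12 in diestrus against estrus, 1 in diestrus against immature (Car14) and 1 in estrus against immature (Aqp8); the weights ran between 0.325 (estrus 2) and 8.16 (estrus 3), and 3331 probe sets were then called in diestrus against estrus. Leaving out 1 array at a time gave between 0 and 1 in diestrus against estrus (Aqp8 without diestrus 3) and 0 in the other 3 comparisons. The cause of these changes was not tested, beyond the smaller number of probe sets tested under the filter. Apart from those 3331, the shares of all probe sets called under these settings are not given. The counts are therefore not a result about the transport genes.

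For the partner genes, called in no comparison in the main analysis, the filter gave 2 in diestrus against immature (Atp6v0a4 and Vipr1) and 1 in diestrus against estrus (Stk39). Array weights gave 14 in diestrus against estrus, 5 in diestrus against immature (Atp6v0a4, Fxyd6, Oxsr1, Stk39 and Vipr1), 5 in estrus against immature (Asic2, Atp6v0a4, Kcnj13, Nedd4l and St14) and 2 in mature against immature (Atp6v0a4 and Vipr1). Averaging the probe sets of each gene, or testing those with 1 symbol only, gave 1 in diestrus against estrus, Stk39. The shares of all probe sets called under these settings are not given, so these counts are not a result about the partner genes. Leaving out 1 array gave between 0 and 1 in diestrus against immature and in mature against immature, with Vipr1 called without diestrus 3, and 0 in the other comparisons. Of 18 named differences with a test, all kept their direction in every setting run except Car5b in diestrus minus immature, which was 0.0045 with immature 2, diestrus 2 and diestrus 3 left out. With the replicate block, the adjusted p of Slc9a9 in diestrus against estrus was 0.149. Replicate numbers are shared by labels only, and same-numbered arrays correlated between -0.29 and 0.17. Of the 74 genes, 27 lay above the array median on all 9 arrays and 37 on none. Values near or below the median limit what the arrays can show for genes other than these 27.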
